A study of Mus musculus with 20 samples.

Results

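Dissociated cells depleted of leukocytes were compared with undissociated tissue in mouse melanomas that lack the stress-activated kinase p38α. The comparison used 3 arrays of the CD45- fraction (tumor and stromal cells) and 3 arrays of complete tumors, 6 of the 20 samples of the series, chosen by their sample titles. All 6 came from the B;p38α line, Tyr::CreERT2;BrafCA/CA;p38αlox/lox, in which 4-hydroxytamoxifen at 5 mg/ml, put on the skin on postnatal days 2.5 and 3.5, switched on oncogenic Braf and deleted p38α, and a UVB dose of 6.24 kJ per square meter followed on day 3.5. The tyrosinase promoter restricts Cre to melanocytes and their descendants, so the stroma and leukocytes of these tumors keep their p38α gene. The CD45- cells were those left after mechanical and enzymatic dissociation and magnetic removal of CD45+ cells, and complete tumors went to RNA extraction without either step, so effects of dissociation and of selection cannot be told apart in this comparison alone. Used beside them were 3 arrays of the CD45+ (immune) fraction of B;p38α tumors, and 3 CD45- fractions and 5 complete tumors of the B line, Tyr::CreERT2;BrafCA/CA, treated in the same way with p38α intact. Tumors were taken at endpoint size, and no age is given for that point. Whether the biological replicates of the labels were separate animals is not stated, so p-values reflect only how these samples scatter, some of which may be technical.

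A melanoma is a mixed tissue of tumor cells of neural crest origin, fibroblasts, vessels and leukocytes, with skin, fat and muscle at its edge. CD45, the product of Ptprc, marks leukocytes, and macrophages are often the most abundant of them in mouse tumors. Breaking a tissue into single cells with enzymes and warmth is known to switch on immediate early genes, which need no new protein synthesis and are driven by serum response factor at CArG boxes, by CREB at cyclic AMP response elements and by p38 and other stress kinases. Long muscle fibers do not survive as single cells, and matrix proteins are made by the fibroblasts and tumor cells that a CD45- fraction retains.

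Promoters of the immediate early genes are shown because these genes formed the functional list with the highest median difference below. RefSeq promoters (GRCm38.p6, 250 bases before to 50 after a start) matched 31 of the 40 measured genes of that list, with 40 promoters, and they were searched on both strands for the CArG box, the cyclic AMP response element TGACGTCA and the AP-1 site TGANTCA. Capitals mark the motif. Egr2, an early response transcription factor that was higher in CD45- cells, holds 2 CArG boxes in the windows before its annotated starts, at chr10:67537484-67537513 and chr10:67537787-67537816 on the plus strand. Ppp1r15a, a phosphatase subunit that restores translation after stress and was also higher, holds a cyclic AMP response element at chr7:45526269-45526290 on the minus strand. Dusp1, the phosphatase that switches off p38, holds one at chr17:26508598-26508625 on the minus strand.
Egr2, first box: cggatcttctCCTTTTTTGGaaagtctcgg
Egr2, second box: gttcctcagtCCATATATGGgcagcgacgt
Ppp1r15a: gcctctccggTGACGTCAgcac
Dusp1: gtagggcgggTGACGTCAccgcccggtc
A CArG box was present in 6 of the 40 promoters (15%) against 1.63% of all 32851 promoters of the table. Those 6 belong to only 3 of the 31 genes, and the 4 among genes that rose are all promoters of Egr2, so several starts of 1 gene carry that share. There was a cyclic AMP response element in 4 promoters (10%), of 4 genes, against 1.79%, and an AP-1 site in 1 (2.5%) against 7.81%. Of the 19 promoters of genes that rose, 1 (5.26%), that of Ppp1r15a, held a cyclic AMP response element and 1 (5.26%) an AP-1 site. These are matches of letters within these windows and say nothing about binding.

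Each array gave log2 expression values for 19504 named genes, and a difference of 1 on this scale is a 2-fold change. The 6 arrays were alike in scale, with medians from 6.90 to 6.98, and correlated with the others of their own group at 0.963 to 0.979. Ptprc, the gene of CD45, read 6.80, 8.37 and 8.63 in CD45- fractions, 11.25, 11.20 and 11.95 in CD45+ fractions and 9.41, 10.30 and 9.79 in complete tumors. CD45- replicate 1 was thus the lowest, and none of the 3 was at the bottom of the scale, whose lowest value was 1.31. Mapk14, the gene of p38α, read 9.58, 9.54 and 9.79 in CD45- fractions and 9.95, 9.57 and 9.86 in complete tumors, a difference of -0.15 ± 0.16 (SE) that did not pass the limma test (adjusted p = 0.681). Both groups carry the deletion, and the position of the probes relative to the deleted part is not known here, so this value checks no label. The mean of 3 Y-linked genes was 8.81 in CD45- replicate 2 and between 2.99 and 3.85 in the other 5 arrays. Among the other arrays, replicates 1 and 2 of the B;p38α CD45+ fraction had the highest correlation of any 2 arrays of the same group (r = 0.991, against 0.979 for the next pair), and B CD45- replicate 1 had the narrowest spread of values.

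In the model of all 6 groups, 745 of 19504 genes (3.82%) differed between CD45- fractions and complete tumors at a Benjamini-Hochberg adjusted p under 0.05 in limma. Of these, 471 were higher in CD45- cells (2.41% of all genes) and 274 were lower (1.4%), with median differences of 0.98 and -1.47, against a median of 0.05 over all genes. The 2 groups of arrays did not overlap for 727 of the 745, and did not overlap for 5053 of all genes (25.9%). The count rests on the spread shared by all 20 arrays. A fit of only the 6 arrays, with 4 residual degrees of freedom, called 0 genes in limma, with 3780 at an unadjusted p under 0.05 and a smallest adjusted p of 0.0652. Without complete tumor replicate 2 or replicate 3 the model called 44 and 38 genes, without replicate 1 it called 1189, and without CD45- replicate 1, 2 or 3 it called 180, 350 and 424. The counts within lists given below were all 0 in the fit of 6 arrays.

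The genes that rose most included Dkk2, Gadd45g and Cited2. Dkk2, a secreted WNT antagonist, read 10.62, 9.63 and 8.19 in CD45- fractions and 6.82, 7.12 and 5.52 in complete tumors, a difference of 2.99 ± 0.82 (SE, limma adjusted p = 0.0494). Gadd45g, a growth arrest and stress gene, read 9.42, 8.61 and 8.90 in CD45- fractions and 6.47, 6.77 and 6.90 in complete tumors (2.26 ± 0.30, adjusted p = 0.00301). Cited2, a transcriptional regulator that limits hypoxia signaling, read 10.47, 10.13 and 9.65 in CD45- fractions and 7.96, 7.93 and 7.70 in complete tumors (2.22 ± 0.32, adjusted p = 0.00442). For each of these genes the lowest CD45- array lay above the highest complete tumor. The call of Dkk2 was lost in 10 of 18 other settings, and those of Gadd45g and Cited2 in 1 of 18, the fit of only the 6 arrays. Others among the 12 largest were Alas2, the first enzyme of heme synthesis in red cells (2.64), the glycoprotein hormone Stc2 (1.86), the mesenchymal surface protein Cd248 (1.84), Rgs7bp, a partner of regulators of G protein signaling (1.99), and Aplp1, a relative of the amyloid precursor (1.83). The call of Cd248 was also lost in 10 of 18 other settings. Klf4, Fbln1, Fbln2 and Fn1 complete the 12 and are described with their lists.

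Part of the immediate early genes rose in CD45- cells relative to the undissociated tumor. Of 40 measured genes, 15 rose (37.5%, against 2.41% of all genes), 0 fell and 39 had a positive difference. The list median was 0.97 against 0.05 over all genes. Klf4, a transcription factor induced by growth factors and stress, read 8.44, 7.88 and 8.89 in CD45- fractions and 5.88, 6.55 and 7.01 in complete tumors (1.93 ± 0.37 SE, limma adjusted p = 0.0123). Egr1, a zinc finger factor of the same early wave, read 11.73, 11.57 and 12.22 in CD45- fractions and 10.03, 9.90 and 10.21 in complete tumors (1.79 ± 0.31, adjusted p = 0.0105). Jun, a subunit of AP-1, read 11.71, 11.18 and 11.86 in CD45- fractions and 9.23, 10.05 and 10.40 in complete tumors (1.69 ± 0.31, adjusted p = 0.011). None of these 3 genes had an array of one group within the range of the other. The remaining genes that rose were Ppp1r15a (1.70), the stress gene Gadd45b (1.68), Egr2 (1.66), the growth regulator Myc (1.59), the matrix-associated protein Ccn1 (1.58), Csrnp1 (1.40), the AP-1 subunits Junb (1.35), Fosl2 (0.97) and Jund (0.96), the pseudokinase Trib1 (1.35), Klf6 (1.04) and the small GTPase Rhob (1.04).

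Members best known as markers of dissociation did not all pass. Fos, the classic partner of Jun, read 10.85, 10.01 and 11.46 in CD45- fractions and 8.30, 9.72 and 10.30 in complete tumors, so the groups overlapped (1.33 ± 0.51, adjusted p = 0.155). Fosb read 9.28, 9.61 and 10.67 in CD45- fractions and 6.25, 8.10 and 9.48 in complete tumors (1.91 ± 0.76, adjusted p = 0.165). Dusp1, whose promoter stretch is printed above, read 11.90, 11.11 and 12.36 in CD45- fractions and 8.81, 10.12 and 11.00 in complete tumors (1.82 ± 0.50, adjusted p = 0.0506). For all 3 genes complete tumor replicate 3 was the highest of its group, and replicate 1 the lowest. The list count was 0 without complete tumor replicate 2, 4 without replicate 3, 3 without CD45- replicate 1 and 8 without CD45- replicate 3.

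The list was also compared in the other dissociated fraction. In CD45+ fractions minus complete tumors, a comparison that shares the 3 complete tumors and in which 10.9% of all genes differed (6.85% higher and 4.08% lower), 37 of the 40 rose and 0 fell (median 1.92). In CD45- minus CD45+ fractions, where 6% of all genes differed (0.892% higher and 5.11% lower), 0 were higher and 15 lower (median -0.91). The mean of the list was 9.38, 8.93 and 9.54 in CD45- fractions, between 10.18 and 10.19 in CD45+ fractions and 8.14, 8.16 and 8.38 in complete tumors, so the 3 sample kinds did not overlap. Atf3, an early stress factor, was high mainly in CD45+ fractions, at 9.15, 7.88 and 9.76 in CD45- fractions, 11.21, 11.19 and 11.64 in CD45+ fractions and 7.59, 7.97 and 9.06 in complete tumors. With CD45+ replicates 1 and 2 averaged and counted as 1, a check added after the data were seen, the CD45+ comparison called 1360 genes against 2132.

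**Figure D1:**
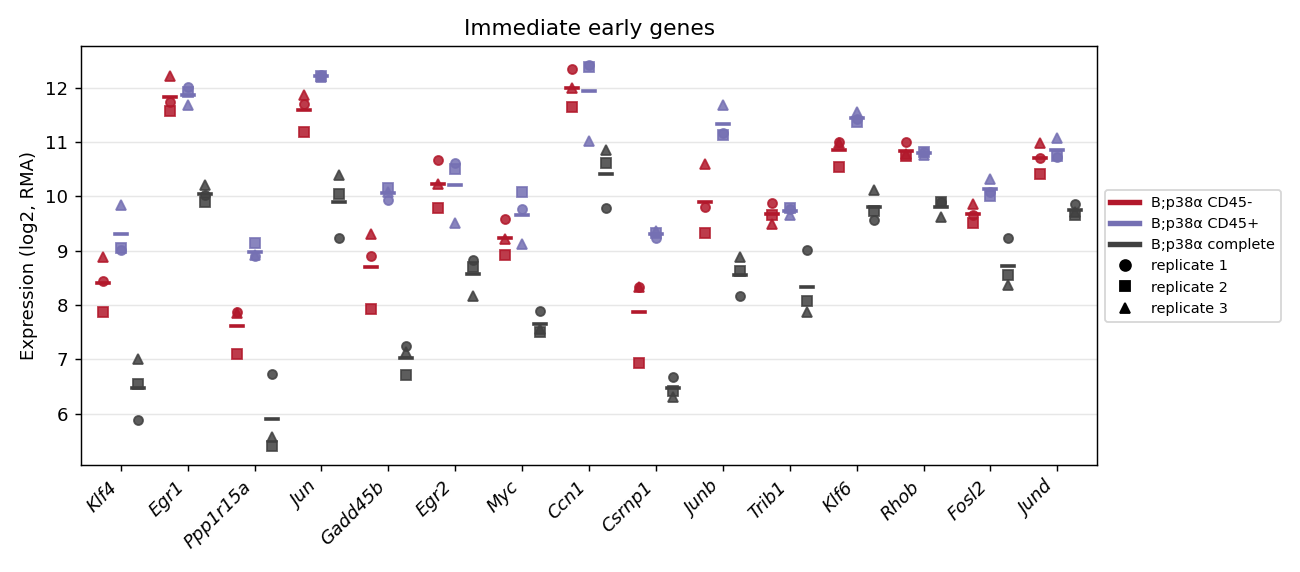
Log2 expression (RMA values, y axis) of the 15 immediate early genes that rose, in 3 CD45-, 3 CD45+ and 3 complete samples of B;p38α tumors; points are arrays, shaped by replicate number, and bars are group means. The CD45- arrays lie above the complete tumors for every gene shown, as for Klf4 with 7.88 to 8.89 against 5.88 to 7.01, and the CD45+ means of Junb and Gadd45b lie higher still.

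Chaperone and other stress genes moved partly with them. Of 13 heat shock genes, 3 rose (23.1%, against 2.41% of all genes) and 0 fell (median 0.47). Those that rose were the co-chaperone Bag3, its partner Hspb8 and the HSP40 family member Dnajb1. In the same comparison of B tumors, where 4.78% of all genes differed, the heat shock median was -0.49, with 1 gene higher and 2 lower. For 0 of the 13 did the difference between the lines pass. Bag3 read 10.21, 9.88 and 9.87 in CD45- fractions and 8.58, 8.18 and 8.28 in complete tumors (1.64 ± 0.28 SE, limma adjusted p = 0.00954). The inducible HSP70 gene Hspa1a read 10.74, 8.94 and 10.91 in CD45- fractions and 7.75, 9.0 and 8.22 in complete tumors and did not pass (1.87, adjusted p = 0.0754); its near-identical copy Hspa1b gave the same difference (1.87), and probes may not separate the pair. Of 17 genes of the unfolded protein and amino acid stress responses, 3 rose (17.6%, against 2.41% of all genes) and 0 fell (median 0.30). They were the mTOR inhibitor Ddit4 (1.21) and the endoplasmic reticulum chaperones Dnajb9 (0.70) and Calr (0.59). Ddit4 read 9.84, 9.43 and 9.36 in CD45- fractions and 8.49, 8.28 and 8.23 in complete tumors, with no overlap. The heat shock count was 0 without complete tumor replicate 2 or 3 and 1 without complete tumor replicate 1, CD45- replicate 1 or CD45- replicate 3, and the unfolded protein count was 0 without complete tumor replicate 2 or 3 or in a fit of the 9 B;p38α arrays alone, and 1 without CD45- replicate 1 or 3.

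Among 19 genes of the p38 pathway itself, 3 rose and 2 fell (26.3%, against 3.82% of all genes, with a median of 0.37). Dusp10, a phosphatase of p38 and JNK, read 10.06, 9.57 and 9.40 in CD45- fractions and 7.60, 8.60 and 7.92 in complete tumors (1.64 ± 0.40 SE, limma adjusted p = 0.033). The mRNA-decay factor Zfp36l1 (0.96) and the upstream kinase Map2k3 (0.71) also rose, and the downstream kinases Rps6ka5 (-0.80) and Mknk1 (-0.66) fell. Mapkapk2, the main substrate kinase of p38α, read 6.56, 6.66 and 7.11 in CD45- fractions and 6.50, 5.98 and 6.16 in complete tumors (0.56, adjusted p = 0.223). Mknk1 read 7.46, 7.68 and 7.76 in CD45- fractions, 8.93, 9.05 and 9.60 in CD45+ fractions and 8.29, 8.23 and 8.35 in complete tumors. Whether leukocyte content accounts for this order was not tested. Of 17 ERK output genes 0 passed while 14 had a positive difference (median 0.67). The highest of them was the ERK phosphatase Dusp4, at 9.11, 8.34 and 8.27 in CD45- fractions and 7.43, 7.14 and 6.91 in complete tumors (1.42 ± 0.40, adjusted p = 0.0582). The ERK output count was 8 with array weights, 4 with dim genes left out and 0 to 2 under the other settings. Which cells or inputs these genes report was not tested. The p38 pathway count was 0 without complete tumor replicate 2 or 3 or CD45- replicate 1, and 3, 2 and 1 without complete tumor replicate 1, CD45- replicate 2 and CD45- replicate 3.

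Skeletal muscle genes had the lowest list median relative to the complete tumor. Of 23 muscle genes, 8 fell (34.8%, against 1.4% of all genes), 0 rose and all 23 had a negative difference (median -2.07). Mylpf, a myosin light chain of fast fibers, read 4.51, 4.17 and 3.91 in CD45- fractions and 5.75, 9.37 and 11.61 in complete tumors (-4.71 ± 0.90 SE, limma adjusted p = 0.0118). Tnnt3, fast troponin T, read 5.14, 4.76 and 5.11 in CD45- fractions and 5.75, 9.50 and 12.02 in complete tumors (-4.09 ± 0.92, adjusted p = 0.0223). The other members that fell were the light chain Myl1 (-3.83), the giant sarcomere protein Ttn (-3.39), the calcium pump Atp2a1 (-3.24), the troponins Tnnc2 (-3.16) and Tnni2 (-3.15) and skeletal actin Acta1 (-3.03). Myh8 (-3.47) and Myot (-3.44), a perinatal myosin and a Z-disc protein outside the list, were among the 12 largest decreases too.

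The spread lay in the complete tumors. For Mylpf the SD was 2.96 in complete tumors and 0.30 in CD45- fractions, and for Tnnt3 it was 3.15 and 0.21. The limma SE and adjusted p of a gene use a spread shared by all groups of the model. For these muscle genes they therefore understate the scatter of the complete tumors. The mean of the muscle list was 5.56, 5.66 and 5.73 in CD45- fractions and 5.60, 7.83 and 9.97 in complete tumors, so complete tumor replicate 1 was at the level of the dissociated cells and replicate 3 far above it. For Myl1, Tnni2 and Acta1 the groups overlapped, with Acta1 at 6.40, 6.19 and 6.68 in CD45- fractions and 6.34, 10.08 and 11.93 in complete tumors. Leaving out complete tumor replicate 1 moved the list median to -3.32 with 18 genes called, and leaving out replicate 3 moved it to -1.0 with 0 called. The count was also 0 without complete tumor replicate 2 and in a fit of the 9 B;p38α arrays alone, and 1 without any 1 of the CD45- arrays. In CD45+ minus complete, which shares the complete tumors, 11 of 23 fell, against 4.08% of all genes, and 0 rose (median -2.32). Between CD45- and CD45+ fractions, where 6% of all genes differed, 0 of 23 did (median 0.10). In these bulk samples fewer cells of a type and less RNA per cell cannot be told apart.

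Car3 and the major urinary protein genes followed other patterns among the same arrays. Car3, a carbonic anhydrase abundant in muscle and fat, read 3.65, 5.50 and 5.94 in CD45- fractions and 7.94, 8.77 and 12.19 in complete tumors (-4.60 ± 0.82 SE, limma adjusted p = 0.0106), with complete tumor replicate 3 the highest as for muscle. Mup19, which encodes a pheromone-binding protein, read 3.75, 7.22 and 4.10 in CD45- fractions and 9.59, 8.92 and 8.57 in complete tumors (-4.01 ± 0.85, adjusted p = 0.0178). Here the complete tumors were close together, and CD45- replicate 2, the array with high Y-linked genes, was the highest CD45- array. Mup22 (-3.75) and Mup2 (-3.11) fell in the same way, and since the Mup genes are near-identical copies their probes may report one another. Of 14 genes in the list of urinary and serpin proteins these 3 fell (21.4%, against 1.4% of all genes) and 0 rose (median -0.04). The liver genes Alb (-0.06) and Apoa1 (0.38) did not pass. The count was 0 without complete tumor replicate 2 or 3, CD45- replicate 1 or CD45- replicate 3.

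**Figure D2:**
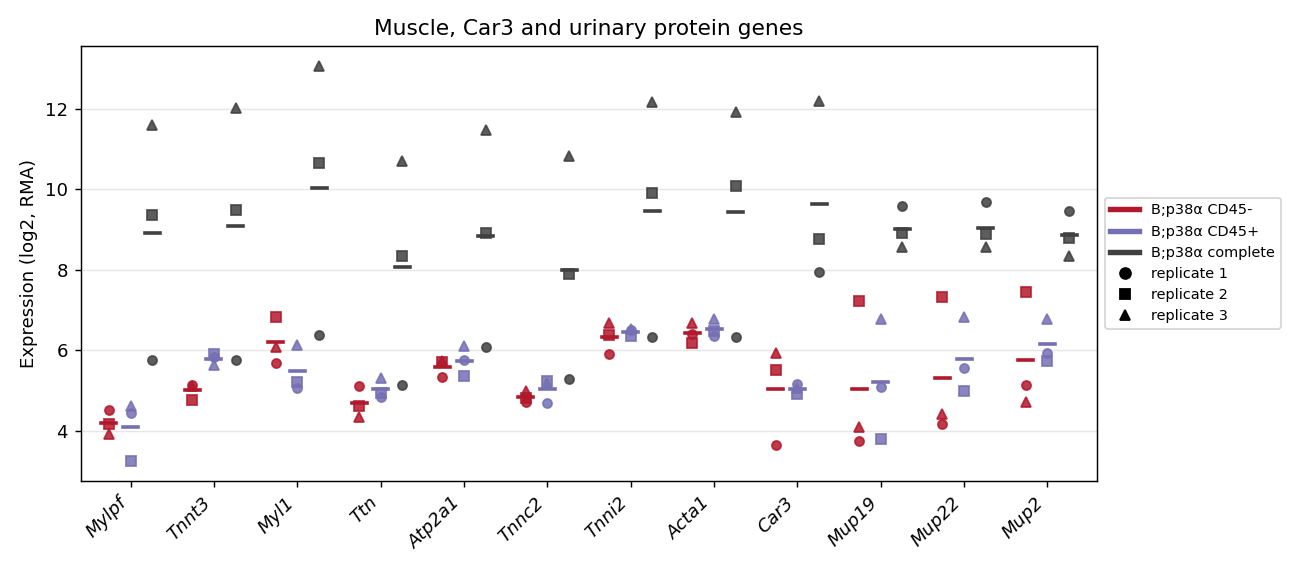
Log2 expression (RMA values, y axis) of the 8 muscle genes that fell, Car3 and 3 major urinary protein genes in CD45-, CD45+ and complete samples of B;p38α tumors; points are arrays, shaped by replicate number, and bars are group means. Both dissociated fractions sit low for the muscle genes while the complete tumors spread widely, as for Mylpf from 5.75 to 11.61; the Mup genes have the complete tumors close together.

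Part of the leukocyte genes fell in CD45- cells relative to complete tumors. Of 16 general leukocyte genes, 7 fell (43.8%, against 1.4% of all genes), 0 rose and all 16 had a negative difference (median -1.55). Ptprc, with the values given above, differed by -1.90 ± 0.38 (SE, limma adjusted p = 0.0147) with no overlap of the groups. Cd48, a leukocyte adhesion protein, read 4.94, 6.05 and 6.02 in CD45- fractions and 7.33, 8.11 and 7.80 in complete tumors (-2.08 ± 0.35, adjusted p = 0.00927). Also lower were the migration regulator Dock2 (-2.38), Cd52 (-2.26), the exchange factor Vav1 (-1.97), the actin bundler Lcp1 (-1.67) and the integrin Itgb2 (-1.46). CD45- replicate 1 was the lowest array for each of these 7 genes, and the list mean was 5.59, 7.23 and 7.77 in CD45- fractions and 8.27, 8.53 and 8.26 in complete tumors. Without CD45- replicate 1 the list median was -0.88 with 2 genes called, without CD45- replicate 3 it was -2.15 with 12, and the count was 4, 0 and 1 without complete tumor replicate 1, 2 or 3. In a fit of the 9 B;p38α arrays alone 1 general leukocyte gene was called.

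Macrophage genes made up the largest share of listed genes that fell. Of 20, 12 fell (60%, against 1.4% of all genes), 0 rose and all 20 had a negative difference (median -1.87). Aif1, a macrophage actin-binding protein, read 3.49, 6.28 and 7.75 in CD45- fractions and 8.59, 10.02 and 8.85 in complete tumors (-3.31 ± 0.69 SE, limma adjusted p = 0.0169). Mrc1, the mannose receptor of tissue-resident macrophages, read 5.16, 7.82 and 9.06 in CD45- fractions and 9.35, 10.88 and 10.86 in complete tumors (-3.02 ± 0.63, adjusted p = 0.0169). The CD45- arrays differed among themselves by more than the complete tumors did, with replicate 1 lowest and replicate 3 highest for both genes. Further genes that fell were lysozyme Lyz2 (-2.68), the monocyte chemokine receptor Ccr2 (-2.53), Ms4a7 (-2.41), the protease Ctss (-2.31), complement C1qc (-2.18), the Fc receptors Fcgr1 (-1.96) and Fcgr3 (-1.86), the growth factor receptor Csf1r (-1.89), the adhesion receptor Adgre1 (-1.79) and the lipoprotein Apoe (-0.86). C1qa read 6.27, 8.31 and 9.76 in CD45- fractions and 9.46, 10.42 and 9.92 in complete tumors, so the groups overlapped and it did not pass (-1.82, adjusted p = 0.0729). Without CD45- replicate 1 the macrophage median was -1.12 with 5 genes called, without CD45- replicate 3 it was -2.60 with 16, and the count was 8 without CD45- replicate 2 and 0 without complete tumor replicate 2 or 3. In the fit of the 9 B;p38α arrays alone 0 of the 20 were called.

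Most of these genes were lower in CD45- than in CD45+ fractions. In CD45+ minus complete, 12 of 16 general leukocyte genes and 8 of 20 macrophage genes rose, against 6.85% of all genes, and 0 fell. The medians were 1.72 and 1.46. In CD45- minus CD45+, 16 of 16 and 19 of 20 were lower (medians -3.37 and -3.64), against 5.11% of all genes. The Mrc1 values in CD45+ fractions were 11.40, 11.43 and 11.99, above every complete tumor and every CD45- array.

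**Figure D3:**
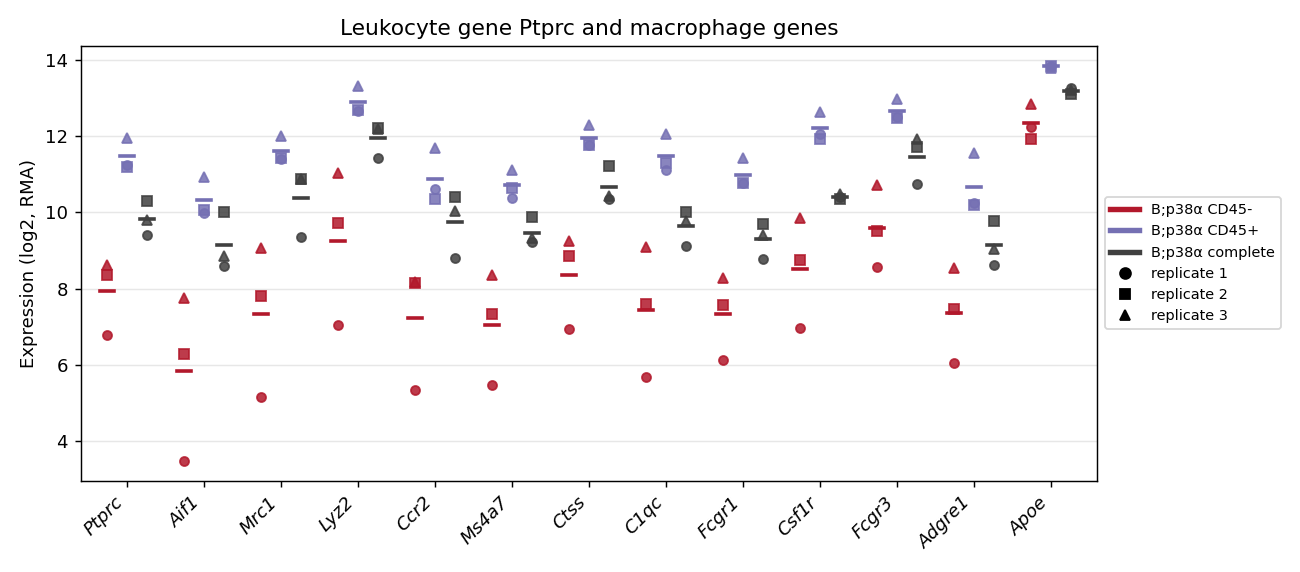
Log2 expression (RMA values, y axis) of Ptprc and the 12 macrophage genes that fell, in CD45-, CD45+ and complete samples of B;p38α tumors; points are arrays, shaped by replicate number, and bars are group means. For each gene the order of the means is CD45-, complete, CD45+ from low to high, and CD45- replicate 1 is the lowest array for all but Apoe.

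Single genes of other leukocyte types also passed, where 3.82% of all genes did. The shares were 33.3% of dendritic cell, 10% of MHC class II and 5.26% of T and NK cell genes. The last is near the share of all genes, and a share of 10% is a single gene here. Of 12 dendritic cell genes, Clec9a (-2.57) and Xcr1 (-1.78), markers of the cross-presenting subset, and Cd209a (-1.67) fell, while Fscn1 (1.59) rose. Fscn1 encodes an actin bundler that is also made by many other motile cells, and it averaged 11.06 ± 0.07 in CD45- fractions and 9.47 ± 0.54 in complete tumors (SD, n = 3 each). Of 10 MHC class II genes, all with a negative difference (median -1.29), only the peptide-loading subunit H2-DMb1 fell, at 6.83, 8.40 and 7.85 in CD45- fractions and 9.48, 9.86 and 9.60 in complete tumors (-1.95 ± 0.41 SE, limma adjusted p = 0.0167). Of 19 T and NK cell genes, the receptor Klrk1 fell (-1.77), and the T cell receptor subunit Cd3e was at 4.64, 6.33 and 5.73 in CD45- fractions and 5.84, 5.70 and 4.29 in complete tumors (0.29, adjusted p = 0.786). None of 11 mast cell genes (median -0.73) and none of 15 neutrophil genes (median 0.26) passed. The mast cell count was 5 with the replicate number as a block or with array weights, 3 without complete tumor replicate 1 and 2 without CD45- replicate 3, and the median was -1.80 with dim genes left out and -0.43 without complete tumor replicate 3. The mast cell protease Cpa3 was 3.03, 5.88 and 7.98 in CD45- fractions and 7.56, 8.67 and 10.36 in complete tumors, and the neutrophil protein S100a8 was 4.92, 7.12 and 5.71 in CD45- fractions and 4.62, 5.25 and 4.83 in complete tumors. Without complete tumor replicate 2 or 3 the counts of the dendritic, MHC class II and T and NK cell lists were all 0, and without CD45- replicate 1 they were 1, 0 and 0, with an MHC class II median of -0.67. They were 2, 2 and 1 without CD45- replicate 2 and 2, 2 and 0 without CD45- replicate 3.

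Among 31 cytokine and chemokine genes 1 rose and 1 fell (6.45%, near the 3.82% of all genes, with a median of 0.15). Csf1, the growth factor that macrophages need, read 10.53, 10.82 and 11.37 in CD45- fractions and 9.25, 9.18 and 8.90 in complete tumors (1.79 ± 0.30 SE, limma adjusted p = 0.00947), so it was higher in the same CD45- arrays in which its receptor Csf1r was lower. Csf1r read 6.96, 8.76 and 9.85 in CD45- fractions and 10.40, 10.36 and 10.47 in complete tumors. The chemokine Ccl8, made by macrophages in mouse skin, read 6.49, 8.14 and 10.31 in CD45- fractions and 9.63, 11.44 and 11.78 in complete tumors, with overlap (-2.64 ± 0.69, adjusted p = 0.0411). Tnf and Cxcl2, inducible inflammatory genes, were 4.96 and 4.87 higher in CD45+ fractions than in complete tumors. In CD45- fractions Tnf read 5.56, 6.15 and 6.58, against 3.89, 5.41 and 5.13 in complete tumors, and did not pass (1.29, adjusted p = 0.183).

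Part of the extracellular matrix genes rose in CD45- cells. Of 19 collagen genes, 5 rose (26.3%, against 2.41% of all genes), 0 fell and 17 had a positive difference (median 0.68). Of 20 genes of matrix glycoproteins and elastic fibers, 6 rose (30%), 0 fell and 18 had a positive difference (median 0.74). Col1a1, the main chain of fibrillar collagen I, read 12.17, 12.43 and 12.95 in CD45- fractions and 11.59, 11.07 and 10.69 in complete tumors (1.40 ± 0.30 SE, limma adjusted p = 0.0192). Fn1, fibronectin, read 13.05, 12.70 and 12.84 in CD45- fractions and 11.59, 10.81 and 10.67 in complete tumors (1.84 ± 0.34, adjusted p = 0.011). Fbln2, an elastic fiber and basement membrane protein, read 9.79, 9.51 and 9.69 in CD45- fractions and 8.53, 7.69 and 7.25 in complete tumors (1.84 ± 0.32, adjusted p = 0.00998). In these 3 genes complete tumor replicate 1 was the highest of its group, and still below every CD45- array.

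The other matrix genes that rose were Col5a1 (1.56), Col6a2 (1.07), Col6a1 (1.04), Col1a2 (0.85), the fibulins Fbln1 (1.91) and Fbln5 (1.42), the basement membrane proteoglycan Hspg2 (1.50) and the laminin chain Lamb1 (1.32). Col3a1, the partner of collagen I in skin, read 12.40, 12.84 and 13.40 in CD45- fractions and 12.65, 12.46 and 12.53 in complete tumors and did not pass (0.33, adjusted p = 0.468). Of 19 matrix protease and inhibitor genes, 4 rose (21.1%, against 2.41% of all genes) and 0 fell (median 0.49). Those that rose were the aggrecanase Adamts4 (1.51), the membrane-bound collagenase Mmp14 (1.23) and the inhibitors Timp3 (1.15) and Timp2 (1.00). Mmp13, a collagenase, had the largest difference of that list, but it read 5.84, 9.55 and 9.90 in CD45- fractions, with replicate 1 near the 5.72, 4.91 and 5.32 of complete tumors, and did not pass (3.11 ± 1.03, adjusted p = 0.0993). The collagen, glycoprotein and protease counts were all 0 without complete tumor replicate 2 or 3, 4, 2 and 3 without CD45- replicate 1, 3, 2 and 2 without CD45- replicate 2, and 2, 3 and 1 without CD45- replicate 3, which also moved the collagen median to 0.44. In CD45+ minus complete, 1, 3 and 4 genes of these lists rose and 0, 1 and 0 fell (medians 0.10, 0.41 and 0.47). Of all genes 6.85% rose and 4.08% fell there. Between CD45- and CD45+ fractions, where 6% of all genes differed, 1 collagen gene was higher in CD45- and 0 lower (median 0.45). Of the glycoprotein genes 0 differed (median 0.52), and of the protease genes 1 was higher and 3 lower (median 0.52).

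Few markers of the stromal cells themselves passed. Of 16 fibroblast markers 0 passed in limma (median -0.09), and the list mean was 8.66, 9.34 and 10.27 in CD45- fractions and 8.87, 9.39 and 9.40 in complete tumors. Without CD45- replicate 1, its lowest array, the fibroblast median was 0.59 with 0 called, and the collagen median 1.01. The collagen crosslinking enzyme Lox had the largest difference among them, at 9.0, 9.65 and 10.90 in CD45- fractions and 7.40, 8.50 and 8.01 in complete tumors (1.88, adjusted p = 0.158). Of 17 endothelial genes, the TGF-beta co-receptor Eng rose (0.91), a share of 5.88% that is near the 3.82% of all genes. Pecam1 was at 8.14, 8.65 and 8.56 in CD45- fractions and 8.34, 8.71 and 9.71 in complete tumors (-0.47, adjusted p = 0.686). Cdh5, the endothelial cadherin, differed by 0.07. None of 14 pericyte and smooth muscle genes passed (median 0.10), and none of 15 adipocyte genes did (median -0.36), with Adipoq at 4.53, 5.19 and 4.33 in CD45- fractions and 6.65, 5.46 and 6.62 in complete tumors (-1.56, adjusted p = 0.229). None of 19 keratinocyte genes passed (median -0.14). The basal keratin Krt5 was at 4.38, 5.53 and 4.76 in CD45- fractions and 6.79, 4.89 and 5.21 in complete tumors. In CD45+ minus complete, 0 fibroblast, 4 endothelial, 3 pericyte, 2 adipocyte and 2 keratinocyte genes rose, against 6.85% of all genes. In that order 1, 0, 0, 0 and 0 fell, and the endothelial and pericyte medians were 1.06 and 0.44. In CD45- minus CD45+, 0 genes of these lists were higher and 1, 3, 4, 1 and 1 lower, against 5.11% of all genes. Endothelial and pericyte medians there were -0.98 and -0.26. Which cells carry these transcripts was not tested.

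**Figure D4:**
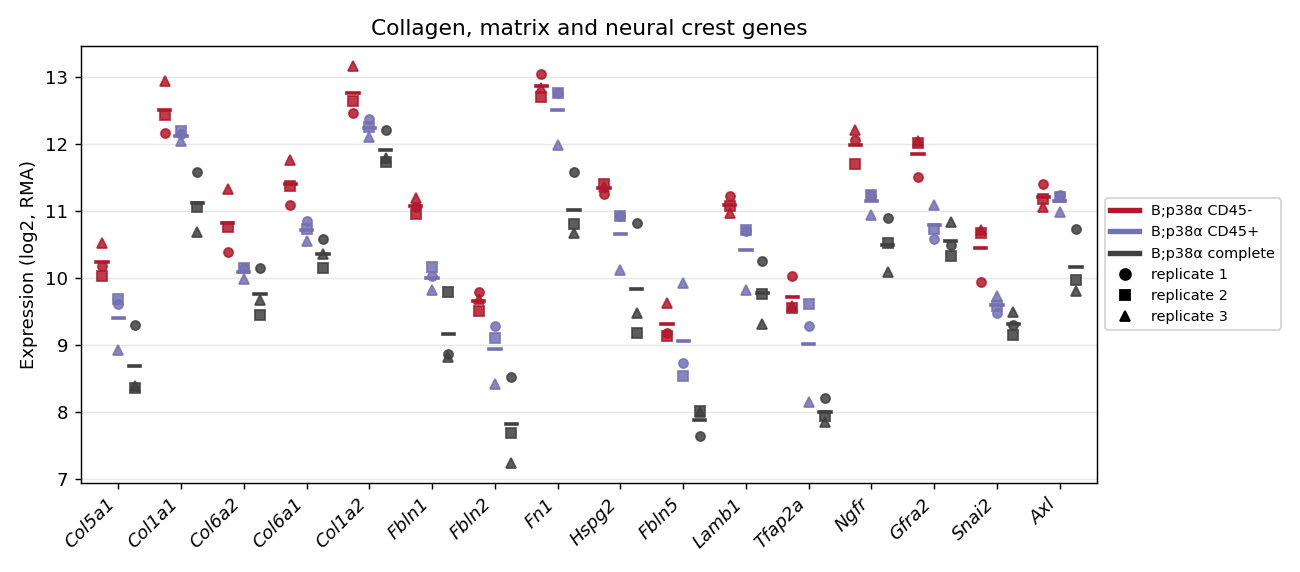
Log2 expression (RMA values, y axis) of the 5 collagen, 6 matrix and 5 neural crest genes that rose, in CD45-, CD45+ and complete samples of B;p38α tumors; points are arrays, shaped by replicate number, and bars are group means. The CD45- arrays lie above the complete tumors for every gene shown, as for Fn1 with 12.70 to 13.05 against 10.67 to 11.59, and for each of them the CD45+ mean lies between the other means.

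Tumor lineage genes showed a rise in part of the neural crest program and none in pigment genes. Of 22 genes of the neural crest and of dedifferentiated melanoma, 5 rose (22.7%, against 2.41% of all genes) and 0 fell. A positive difference was found for 17 (median 0.63). Ngfr, the nerve growth factor receptor of undifferentiated melanoma cells, read 12.07, 11.70 and 12.21 in CD45- fractions and 10.90, 10.52 and 10.09 in complete tumors (1.49 ± 0.33 SE, limma adjusted p = 0.0197). Tfap2a, a transcription factor of neural crest and melanocytes, read 10.04, 9.55 and 9.58 in CD45- fractions and 8.21, 7.95 and 7.86 in complete tumors (1.71 ± 0.38, adjusted p = 0.0198). Gfra2, a receptor for neurturin, read 11.51, 12.02 and 12.05 in CD45- fractions, 10.58, 10.73 and 11.09 in CD45+ fractions and 10.50, 10.34 and 10.84 in complete tumors. Of the 22 genes Gfra2 was the only 1 that was higher in CD45- than in CD45+ fractions (1.06, adjusted p = 0.0193). There 1 gene was lower (list median 0.67), where 6% of all genes differed. In CD45+ minus complete, where 10.9% of all genes differed, 1 of the 22 rose and 2 fell (median 0.22). The transcription factor Snai2 (1.13) and the receptor kinase Axl (1.05) rose too.

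Sox10, the defining transcription factor of the lineage, was high in all arrays and did not pass, at 11.78, 11.34 and 11.07 in CD45- fractions and 11.71, 10.59 and 10.74 in complete tumors (0.39 ± 0.34, limma adjusted p = 0.593). S100b, a calcium-binding protein of melanocytes and Schwann cells, went the other way without passing, at 7.06, 6.35 and 8.84 in CD45- fractions and 9.13, 8.76 and 9.89 in complete tumors (-1.84, adjusted p = 0.0912). Of 18 melanin and melanosome genes 0 passed (median -0.26). The pigment enzyme Dct was at 4.50, 3.93 and 4.94 in CD45- fractions and 6.11, 5.74 and 5.52 in complete tumors (-1.33, adjusted p = 0.407), and Tyrp1 differed by -0.41. Of 14 Schwann and glial genes only Egr2, also an immediate early gene, rose (7.14%, against 2.41% of all genes). The neural crest count was 0 without complete tumor replicate 2 or 3, and 2, 3 and 4 without CD45- replicate 1, 2 or 3.

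No listed cell cycle gene passed. None of 23 mitosis genes (median -0.12) and none of 21 DNA replication genes (median 0.02) passed. The mitosis list mean was 9.14, 7.78 and 8.0 in CD45- fractions and 7.55, 9.04 and 8.50 in complete tumors, so CD45- replicate 1 was the highest and complete tumor replicate 1 the lowest of the 6. Of 24 oxidative phosphorylation genes 1 fell (4.17%, near the 3.82% of all genes, with a median of -0.15). It was Cox6a2, the heart and skeletal muscle form of a cytochrome oxidase subunit. Cox6a2 was at 6.65, 6.51 and 6.32 in CD45- fractions and 6.84, 8.46 and 10.81 in complete tumors, the same order of complete tumors as for muscle. Ndufa4, a subunit made in all tissues, was 10.70, 10.49 and 10.47 in CD45- fractions and 11.06, 11.53 and 11.35 in complete tumors (-0.75, limma adjusted p = 0.054).

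**Figure D5:**
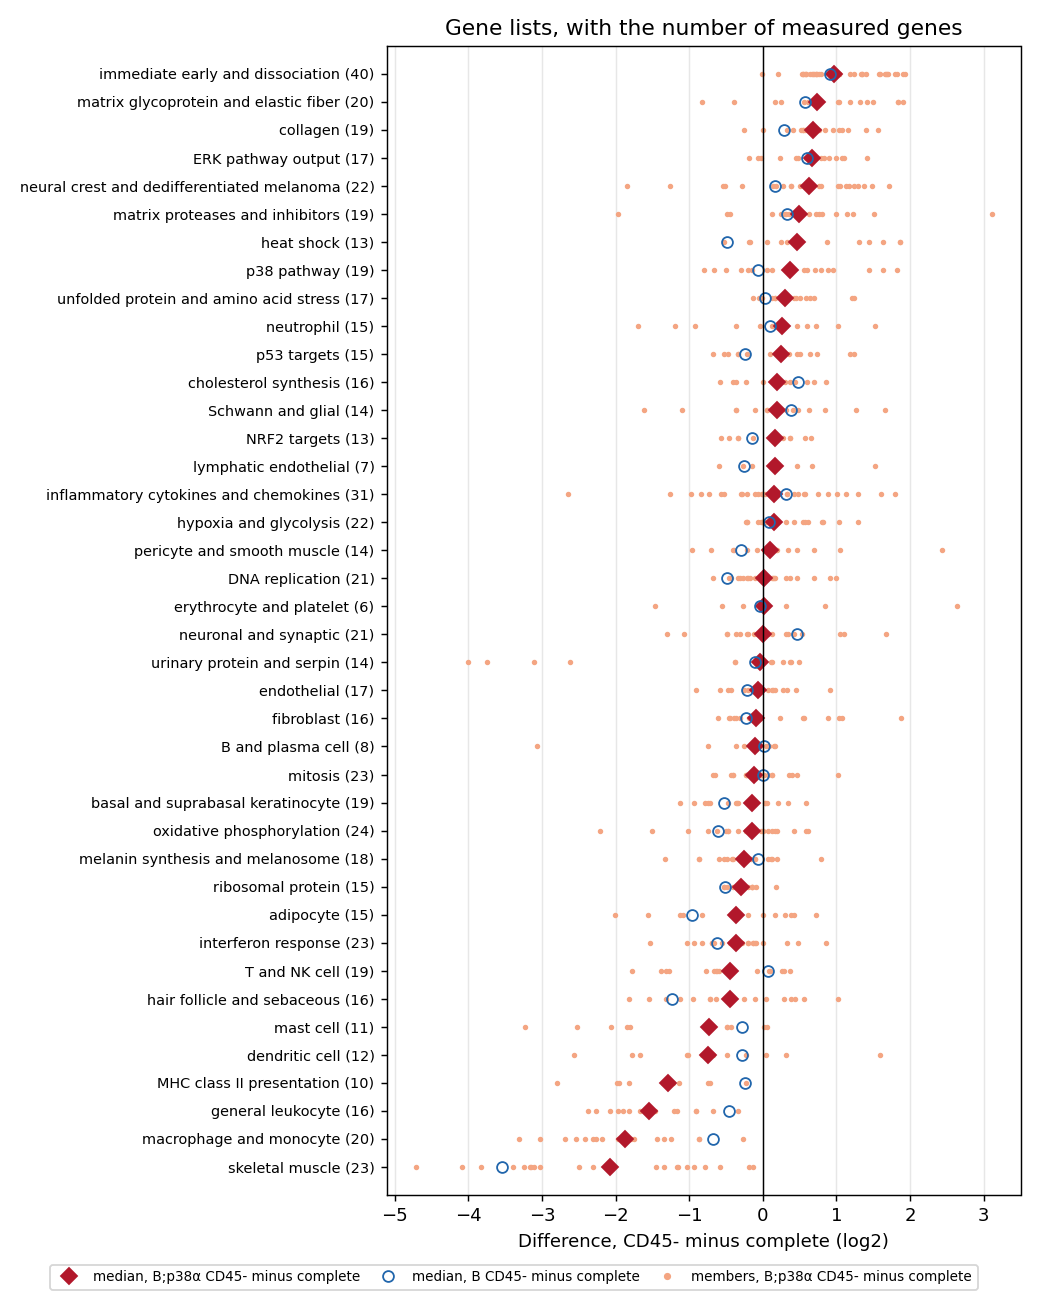
Median difference (log2, x axis) of 40 gene lists (y axis, with the number of measured genes), CD45- minus complete, in B;p38α tumors (diamonds) and in B tumors (open circles), with the members in B;p38α tumors as dots. Immediate early genes have the highest functional list median (0.97) and skeletal muscle the lowest (-2.07); leukocyte and macrophage medians are lower in B;p38α than in B tumors, a difference that passed for none of their genes.

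The same comparison in B tumors, which have p38α and share no array with it, called 933 genes in limma (4.78%), 399 higher (2.05%) and 534 lower (2.74%). Of the 471 genes that rose in B;p38α tumors 432 (91.7%) had a positive difference in B tumors, as had 50.1% of all genes, and of the 274 that fell 248 (90.5%) had a negative one, as had 49.9%. Genes called higher in both numbered 92, out of 471 in B;p38α and 399 in B tumors, and genes called lower in both numbered 56, out of 274 and 534. Across genes the differences of the 2 lines correlated at r = 0.393 and rho = 0.381, a description over 19504 genes that are not independent. Immediate early genes had nearly the same median in B;p38α (0.97) and B tumors (0.92), with 15 of 40 called higher in each. Muscle genes had a median of -2.07 in B;p38α tumors with 8 called and of -3.54 in B tumors with 19 called, and Mylpf averaged 8.91 ± 2.96 in B;p38α complete tumors (SD, n = 3) and 10.86 ± 0.26 in B complete tumors (SD, n = 5).

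Whether a difference depended on the genotype was tested gene by gene as the B;p38α minus the B difference. In limma 0 genes passed (0%), with 1889 at an unadjusted p under 0.05 (9.69%) and a smallest adjusted p of 0.161, so no gene is called particular to B;p38α tumors. Leaving out B complete replicate 4 gave 37 genes. The smallest p on the higher side belonged to Plch1, a phospholipase C, which read 5.03, 4.52 and 4.59 in B;p38α CD45- fractions and 3.61, 3.56 and 3.43 in complete tumors, while the difference in B tumors was -0.07 (difference of differences 1.25 ± 0.20 SE, adjusted p = 0.161). Next came the imprinted gene Peg3 (2.12 ± 0.37, adjusted p = 0.245), the lipase inhibitor Angptl4 (2.40 ± 0.47, adjusted p = 0.412) and the chaperone Hspb8 (2.29 ± 0.45, adjusted p = 0.412). On the lower side were Map3k1, a kinase upstream of JNK (-1.04), the survival gene Bcl2a1a (-2.30), Mctp1 (-2.07) and the purine receptor P2ry13 (-1.68), each at an adjusted p of 0.472. Bcl2a1a belongs to a family of near-identical copies. Ptprc itself had a difference of differences of -1.67 ± 0.51 (adjusted p = 0.472): the CD45- minus complete difference was -1.90 in B;p38α and -0.23 in B tumors. The part of leukocyte depletion in the differences of leukocyte genes between lines was not tested.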

How the data were processed

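RNA of mouse melanomas was hybridised to single-colour arrays after biotin labelling. Per the submitters' processing notes the authors made the deposited log2 values with RMA, a method that corrects background, normalizes and summarizes probes; the set of arrays normalized as one is unknown here. The table had 21244 rows and 0 columns of other samples. Its 19570 named rows matched RefSeq (GRCm38.p6) by entrez number, 1674 rows were unnamed, and the row with the highest mean was kept per gene, leaving 19504 genes with no filter on dim genes. Arrays have no read depth, so precision is limited by how many there are.

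Groups came from the sample labels. limma 3.58.1 (lmFit, contrasts.fit, eBayes; R 4.3.3) was fitted over all 6 groups (20 arrays, 14 residual degrees of freedom), two-sided, with Benjamini-Hochberg adjustment over all genes and a threshold of 0.05. Differences are CD45- minus complete unless stated. The fit was tested on simulated data in which each gene had the same spread in every group. That test does not cover unequal spreads such as those of the muscle genes.

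The 41 lists (686 measured genes) and the samples were chosen with earlier results of these data known, and lists are described by counts and medians. Genes named are Mapk14, Ptprc, defining markers, the 12 with the largest differences each way among genes that passed without overlap, the 4 each way with the smallest p for the difference of differences, and up to 5 members per list, passing members first; further passing members, Atf3, Col3a1, Csf1r, Mapkapk2, Ndufa4, Tnf, Alb and Apoa1 were added after their values were seen. Alternatives are given in the closing section. Python 3.11.15 and matplotlib 3.10.9 drew the figures. Raw scanner data were not used here.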

Additional observations from a re-analysis of the deposited data

Results flagged for a closer look

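Among the means of the 41 gene lists in the 5 B complete tumors, the sole group large enough for the check, 3 had 1 sample far from the others, where chance gives about 1 in 20. B complete replicate 1 had a T and NK cell mean of 4.98 and a keratinocyte mean of 8.07, and B complete replicate 5 had a matrix glycoprotein mean of 11.11. These arrays enter the differences in B tumors, and the cause was not tested.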

How the results depend on the processing

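The count of 745 genes ranged from 38 to 1189 when 1 array of the B;p38α groups was left out. It was 1178 without dim genes, 2089 with array weights, 478 with the replicate number as a block and 0 in the fit of only the 6 arrays, and it lay within 1.5 times of 745 under the other settings (531 to 1054). Same-numbered CD45- and complete arrays deviated together at r = 0.07, -0.04 and 0.14, and same-numbered CD45- and CD45+ arrays at 0.30, -0.11 and 0.35. With 3 arrays per group these values cannot tell whether replicate numbers pair the samples. Of the 478 genes called with the replicate block, 414 were among the 745. For the difference of differences the count was 19 with the replicate block and between 0 and 37 with 1 array left out, and a fit of the 9 B;p38α arrays cannot give it. CD45+ minus complete gave 2132 genes, 4470 with array weights, 1360 with the 2 similar CD45+ arrays averaged and 1070 to 2644 with 1 array left out (the highest without B CD45- replicate 1). CD45- minus CD45+ gave 1170 genes, 2154 with array weights and 720 to 1372 with 1 array left out (the highest without B CD45- replicate 1). Subtracting array medians turned the split of CD45+ minus complete to 1214 higher and 1293 lower, against 1336 and 796.

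Listed genes called numbered 89. There were 52 in the fit of 9 arrays (43 higher and 9 lower, against 49 and 40), 154 with array weights, 0 in that of 6 arrays and 2 to 106 with 1 array left out. Of the 96 named genes whose limma adjusted p rounds, at 3 digits, to less than 0.05, 0 changed direction under any setting. Of these, 46 stayed past the threshold in the fit of 9 arrays, 67 with the replicate block and 75 with the similar arrays averaged. Without complete tumor replicate 2 or 3 there were 5 and 8, and without CD45- replicate 1 there were 29. Dock2, Rps6ka5 and Cox6a2 passed with an adjusted p that rounds to 0.05 and are not among the 96. Dock2 lost its call in 10 of 18 settings. Genes that had not passed and changed sign when 1 array was left out were Cd3e (-0.20 to 0.75, also -0.09), Cdh5 (-0.06 to 0.33, also -0.05), Krt14 (-0.67 to 0.12), Dsg1a (-1.18 to 0.01) and Bub1 (-0.95 to 0.07). The cause of these changes was not tested beyond the fewer arrays in the smaller fits. The precision of every count is limited by 3 arrays per group.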

Other observations

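Gene lists not described above mostly showed small differences between CD45- fractions and complete tumors in B;p38α tumors. Of 15 ribosomal protein genes 14 had a negative difference, with a list median of -0.30. Only 1, Rps24, passed the limma test (-0.53, adjusted p = 0.048), a call lost in 11 of 18 other settings. That share of 6.67% is near the 3.82% of all genes. Of 23 interferon response genes 19 had a negative difference and 0 passed (median -0.37). Among 22 hypoxia and glycolysis genes the phosphofructokinase subunit Pfkl rose (1.30, adjusted p = 0.0116), with a list median of 0.15. That share of 4.55% is also near the 3.82% of all genes. None of 15 p53 targets (median 0.25), 13 NRF2 targets (0.17), 16 cholesterol synthesis genes (0.20), 21 neuronal genes (0.01), 16 hair follicle and sebaceous genes (-0.45), 7 lymphatic genes (0.17) or 8 B and plasma cell genes (-0.10) passed.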
